A study of Mus musculus with 4 samples.

Results

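Neural lineage transcription factor loci in mouse embryonic stem cells (mESCs) were examined by Hi-C, which counts how often pairs of genomic regions are ligated together in the nucleus. The 8 genes, Pax6, Neurog2, Sox1, Olig2, Nkx2-2, Six3, Lhx5 and Meis2, were chosen by name, with earlier results of these data known. They are set beside the 21418 autosomal protein-coding genes of the annotation used, which does not name Sox1. Each locus was taken as the gene body with 500 kb on each side, which gave 215 of the 66382 bins of 40 kb, and all 215 bins were kept by the correction in both matrices. The groups were male wild-type (WT) mESCs and male mESCs with a knockout (KO) of Firre, a long non-coding RNA gene of the X chromosome. By the study's methods, both were grown in 2i medium, and the WT cells were the N3 line. The methods name irradiated mouse embryonic fibroblasts as feeders, depleted before use, for the Firre KO cells and not for WT, while another passage of the study speaks of feeders for both. By the methods, genotype, cell line and culture cannot be told apart. Each group had 2 libraries pooled in 1 matrix, and the mESC libraries were technical duplicates. No difference below therefore has a replicate check and no test was run. Values are given with 95% counting intervals, which cover counting error only.

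In WT, 65611035 read pairs were recovered, 16.1% of them between chromosomes. In the matrix labelled Firre KO, called the labelled KO matrix below, there were 46635652, with 35.6% between chromosomes. The bin that lies wholly inside Firre, chrX:47920001-47960000 in mm9, held 1591 read pairs with other bins in WT and 1913 in the labelled KO matrix. Those counts were 318% and 327% of the median X chromosome bin, so the deletion was not seen in that matrix, and the group is named here by its label.

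Transcription factors of the neural lineage are largely silent in mESCs and are switched on as neuroectoderm forms and is patterned. In stem cells, many such developmental genes have CpG-rich promoters bound by Polycomb complexes, and such genes can contact one another over long distances. Hi-C maps separate an A compartment, rich in genes and active chromatin, from a B compartment of mostly inactive chromatin. On a finer scale, topologically associating domains (TADs) are stretches whose contacts are depleted across their boundaries.

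The 8 genes lie on 6 chromosomes of mm9. Sox1, an HMG-box factor of the early neural plate, lies on the plus strand at chr8:12395519-12399555. Pax6, a paired-box and homeodomain factor of the eye and forebrain, lies at chr2:105509053-105543317 on the plus strand. Six3, a homeodomain factor of the anterior forebrain and eye, lies at chr17:86012948-86031153 on the plus strand, and Lhx5, a LIM-homeodomain factor, lies at chr5:120881895-120891466 on the plus strand. Nkx2-2 and Olig2, which pattern the ventral neural tube, lie at chr2:147003282-147019979 on the minus strand and at chr16:91225795-91228922 on the plus strand. Neurog2, a proneural basic helix-loop-helix factor, lies at chr3:127336054-127338549 on the plus strand. Meis2, a TALE homeodomain factor that is also used outside the nervous system, lies at chr2:115688800-115891575 on the minus strand.

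The promoters of 4 of the genes are shown to relate the loci to their sequence, because Sox1 and Olig2 had the most CG dinucleotides, and Six3 and Meis2 lay at opposite ends of the compartment result among the genes with a promoter sequence. Each run holds the 250 bases before a RefSeq start, 5′ to 3′ on the strand of the gene, with every CG in capitals. The sequences are from RefSeq on GRCm38.p6 and were placed in mm9 by an exact match. They lie at chr8:12395269-12395518 on the plus strand for Sox1, chr16:91225545-91225794 on the plus strand for Olig2, chr17:86019924-86020173 on the plus strand for Six3, and chr2:115890356-115890605 on the minus strand for Meis2.
Sox1: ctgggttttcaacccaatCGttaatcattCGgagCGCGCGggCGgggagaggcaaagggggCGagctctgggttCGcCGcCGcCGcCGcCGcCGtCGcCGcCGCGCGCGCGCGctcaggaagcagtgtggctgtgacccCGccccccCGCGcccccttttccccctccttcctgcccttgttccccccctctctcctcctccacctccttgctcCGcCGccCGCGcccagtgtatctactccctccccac
Olig2: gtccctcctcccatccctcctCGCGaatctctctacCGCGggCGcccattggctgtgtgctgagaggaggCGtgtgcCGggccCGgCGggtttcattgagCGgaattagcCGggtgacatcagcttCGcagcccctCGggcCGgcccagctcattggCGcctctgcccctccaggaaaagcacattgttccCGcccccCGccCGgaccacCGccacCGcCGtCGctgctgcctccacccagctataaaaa
Six3: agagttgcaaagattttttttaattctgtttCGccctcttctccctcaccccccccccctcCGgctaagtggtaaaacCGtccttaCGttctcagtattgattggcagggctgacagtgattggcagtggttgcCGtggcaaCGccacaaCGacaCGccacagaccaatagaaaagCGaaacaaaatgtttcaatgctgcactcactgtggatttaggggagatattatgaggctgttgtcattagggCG
Meis2: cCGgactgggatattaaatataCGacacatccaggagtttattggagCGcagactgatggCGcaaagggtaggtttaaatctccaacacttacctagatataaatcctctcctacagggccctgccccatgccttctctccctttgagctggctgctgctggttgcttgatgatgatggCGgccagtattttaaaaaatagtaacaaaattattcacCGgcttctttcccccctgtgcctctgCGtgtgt
The Sox1 stretch held 29 CG dinucleotides, and 6.78% of 32851 mouse promoter stretches of the same length held as many, against a median of 6. Olig2 held 22, a number reached by 14.8% of promoters. Both Pax6 promoters held 15 (27.3%), and Six3 held 10 (37.8%). Neurog2 and Nkx2-2 held 8 each (43.0%), while Meis2 held 7 (46.3%). A 40 kb bin is far wider than any of these stretches, so the contact values below belong to loci and not to promoters.

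In contacts along their own chromosomes, 7 of the 8 loci leaned less towards the A compartment in the labelled KO matrix than in WT. Of all 21375 protein-coding gene loci, 11881 leaned less towards it too. Among the 8, the Meis2 locus leaned more towards the A compartment. In WT, 6 loci lay above 0, with Olig2 highest and Nkx2-2 at 0 within its interval, and 68.0% of all protein-coding gene loci did. In the labelled KO matrix Olig2 was the only locus above 0 by this measure, while other settings gave 0 to 5 loci, and 59.4% of gene loci were above 0 there. Compartment preference is the log2 ratio of observed over expected contacts with A reference windows to those with B reference windows, beyond 2 Mb on the same chromosome. A value above 0 therefore means more contact with A than with B. The values rested on 5517 to 8504 read pairs per locus in WT and 2696 to 4231 in the labelled KO matrix.

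Lhx5 had a preference of 1.41 (interval 1.27 to 1.56) in WT and -0.40 (-0.54 to -0.26) in the labelled KO matrix, a difference of -1.82 (-2.01 to -1.62). Six3 had 0.72 (0.61 to 0.83) and -0.95 (-1.09 to -0.80), a difference of -1.67 (-1.85 to -1.48). Over whole windows these were the 2 largest differences among the 8 loci, and 2.29% and 3.20% of all protein-coding gene loci had a difference at or below them. At the gene start and 1 bin on each side the order changed. There the largest difference was that of Olig2 (-2.42), while Lhx5 had -1.97 and Six3 -1.41.

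The patterning genes of the ventral neural tube differed in level but moved the same way. Nkx2-2 had a preference of 0.02 (-0.10 to 0.14) in WT, a value whose interval holds 0, and -1.35 (-1.51 to -1.20) in the labelled KO matrix, a difference of -1.37 (-1.57 to -1.17). Olig2 had the highest preference of the 8 in both matrices, 1.84 (1.73 to 1.94) and 0.82 (0.69 to 0.96), a difference of -1.01 (-1.19 to -0.84).

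Among the early neural plate and forebrain genes, Sox1 had 1.24 (1.14 to 1.34) in WT and -0.07 (-0.20 to 0.07) in the labelled KO matrix, a difference of -1.30 (-1.47 to -1.13) that ended at a value whose interval holds 0. Pax6 was on the B side in both matrices, with -0.64 (-0.72 to -0.55) and -1.62 (-1.75 to -1.49), and differed by -0.98 (-1.13 to -0.83). Neurog2 had 0.40 (0.29 to 0.52) and -0.40 (-0.56 to -0.25), the smallest difference of the 7, at -0.81 (-1.0 to -0.61).

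Meis2 was the exception in direction. Its preference was -0.90 (-0.99 to -0.81) in WT, the lowest of the 8 there, and -0.41 (-0.55 to -0.27) in the labelled KO matrix. The difference was 0.49 (0.33 to 0.66), and 76.0% of gene loci had a difference at or below it. At the gene start and 1 bin on each side it was 0.38 (-0.07 to 0.83), an interval that holds 0.

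Against the background, a preference lower by 0.5 or more was found in 30.6% of 21375 gene loci and in 7 of these 8. A preference higher by 0.5 or more was found in 23.6% of gene loci and in 0 of the 8. A preference above 0 in WT and below 0 in the labelled KO matrix was found in 14.0% of gene loci. It was found in 5 of the 8, which were Neurog2, Sox1, Nkx2-2, Six3 and Lhx5. The interval of Nkx2-2 in WT and that of Sox1 in the labelled KO matrix held 0. The number of the 8 that crossed was 3 with uncorrected read pairs and 3 with reference windows by GC content. With the latter, 1835 of 21375 gene loci crossed. The median over all gene loci was 0.75 in WT and 0.36 in the labelled KO matrix, with a median difference of -0.12 and SDs across genes of 1.14 and 1.42. The 8 loci were chosen with earlier results of these data known. They are not replicates, and Pax6, Meis2 and Nkx2-2 share chromosome 2.

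**Figure D1:**
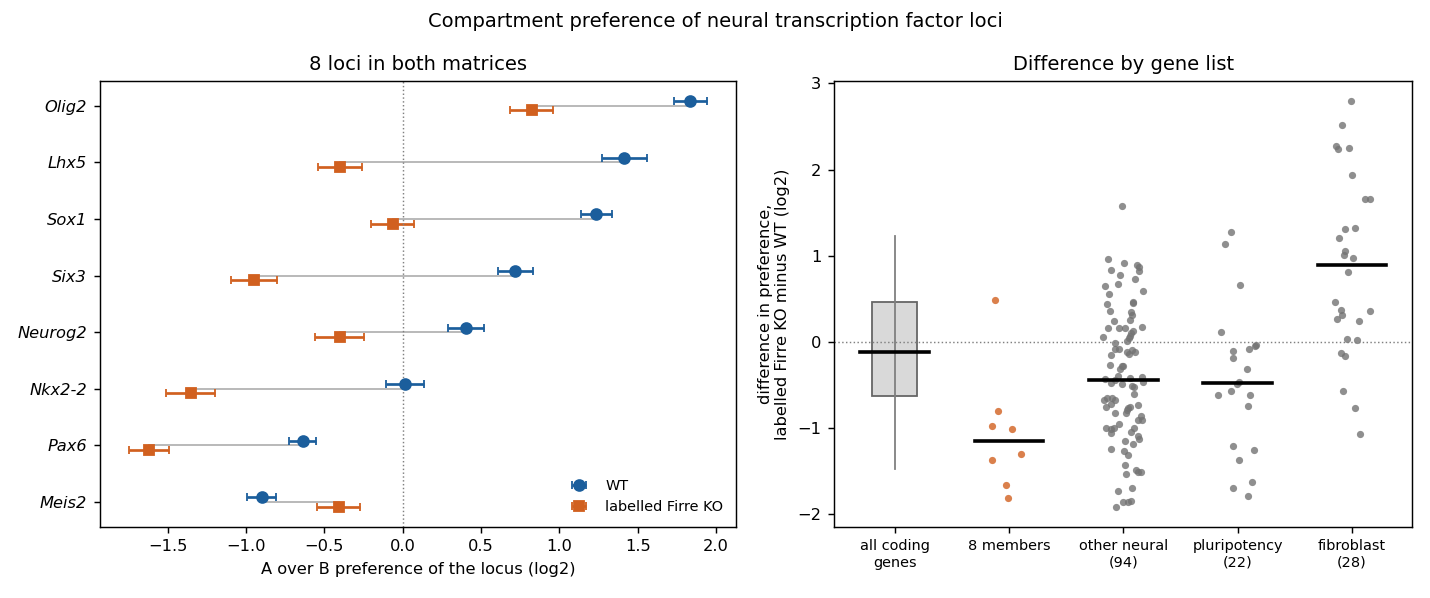
Compartment preference (log2) of the 8 loci in both matrices with 95% counting intervals (left), and the difference between matrices, Firre KO minus WT, for each gene of the lists with bars at the medians (right; box, quartiles of all protein-coding genes; whiskers, 5th to 95th percentile). In 7 loci the value of the labelled KO matrix lies below that of WT, and in Meis2 it lies above, by 0.49.

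Contacts with A and B reference windows on other chromosomes come from separate read pairs and gave the same order at both ends. There the difference was -1.73 for Lhx5, -1.51 for Six3, -1.32 for Sox1, -1.17 for Nkx2-2, -1.06 for Pax6, -0.88 for Olig2 and -0.66 for Neurog2. For Meis2 it was 0.14 (-0.02 to 0.31), an interval that holds 0. Of all 21375 gene loci, 12531 were lower by this measure, and 7503 were lower by 0.5 or more. When the reference windows were instead chosen by their GC content, which uses neither matrix, 7 loci were again lower, by -0.11 (Pax6, -0.23 to 0.01) to -1.13 (Six3), 4 of them by 0.5 or more. Of all gene loci, 57.1% were then lower and 19.2% lower by 0.5 or more. Meis2 then differed by 0.37 (0.24 to 0.50). The size of the difference thus depended on the reference windows, and for Pax6 its interval then held 0.

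Along the loci, 173 of the 215 bins had a lower preference in the labelled KO matrix, against 50.1% of 58907 autosomal bins. The number of bins above 0 was 141 in WT and 63 there, while over all autosomal bins the share above 0 was 44.0% and 44.6%. All 27 bins of the Six3 window and all 26 of the Lhx5 window were lower. Around Six3, the 13 bins towards lower coordinates had a median of 0.77 in WT and -1.81 in the labelled KO matrix. Around Lhx5, the preference 240 kb above the start was 3.24 in WT and 0.20 in the labelled KO matrix.

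The other loci were less even. In the Pax6 window 26 of 27 bins were lower, in Nkx2-2 24 of 26, in Sox1 23 of 26, in Neurog2 22 of 26 and in Olig2 20 of 26. In the Olig2 window the bins differed widely. Its start bin had 1.64 in WT and -1.25 in the labelled KO matrix, from 319 and 125 read pairs, whereas the bin 440 kb above the start had 3.19 and 3.27. On that side of Olig2, 7 of 13 bins were lower, against 12 of 12 on the other side.

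In Meis2, 5 of 31 bins were lower, and all 5 lay above the start at higher coordinates, outside the gene. The 18 bins below the start, which hold the gene body, were all higher, with a median of -0.31 in WT and 0.40 in the labelled KO matrix. The 12 bins above it had medians of -1.56 and -1.34. Of those 12, 7 were higher too.

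The windows also differed in what they hold. The Olig2 and Lhx5 windows each held 22 protein-coding gene starts and had the 2 highest preferences in WT, while the Meis2 window held 2 and had the lowest. GC content ran from 40.2% (Meis2) to 50.3% (Lhx5), and the number of HindIII sites per bin from 9.15 (Lhx5) to 13.7 (Pax6). The largest and the opposite difference came from the windows at both ends of the GC range, and a part of base composition in them was not tested.

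The sides of the remaining windows differed as well. In the Sox1 window the 12 bins below the start had medians of 0.87 in WT and -0.67 in the labelled KO matrix, and the 13 bins above it had 1.51 and 0.54. In Nkx2-2 the 13 bins below the start, on the side of the gene body, had 0.57 and -1.36, and the 12 bins above it had -0.74 and -1.53. Neurog2 had 0.65 and 0.12 below its start and 0.15 and -0.76 above it. Pax6 was lower on both sides, with -0.57 and -1.82 below the start and -0.76 and -1.41 above it.

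**Figure D2:**
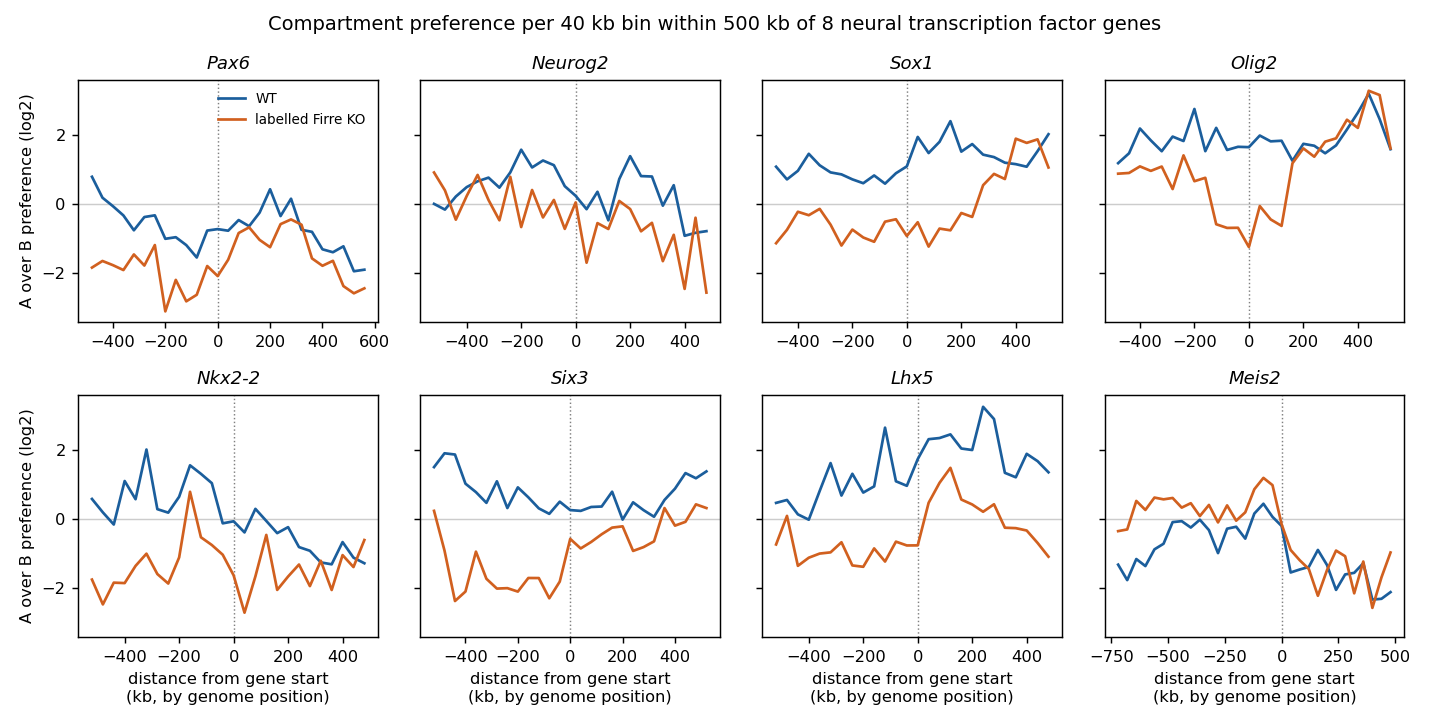
Compartment preference (log2) of each 40 kb bin against distance from the gene start (kb, by genome position) in the 8 loci, WT and Firre KO. The profiles lie apart over all bins of Six3 and Lhx5, meet 440 kb above the Olig2 start, and are in the opposite order over the gene body side of Meis2.

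Other gene lists moved as well. Over all gene loci, 30.6% were lower by 0.5 or more, 23.6% were higher by as much, and the median difference was -0.12. Of 94 other neural transcription factor genes, 43 were lower by 0.5 or more and 13 higher, with a median difference of -0.44. That list holds Olig1 and Nkx2-4, which lie next to Olig2 and Nkx2-2 and share most of their windows, and Sox2, which the next list holds too. Of 22 pluripotency genes, which are active in mESCs, 10 were lower by 0.5 or more and 3 higher, with a median difference of -0.48. Of 28 genes used as fibroblast markers, 15 were higher by 0.5 or more and 3 lower, with a median difference of 0.90 and a median preference of -0.25 in WT and 0.62 in the labelled KO matrix. These 2 lists also hold neighbours that share most of their windows, namely Nanog, Dppa3 and Gdf3, Lum with Dcn, and Col3a1 with Col5a2. With contacts on other chromosomes the medians of the 3 lists were -0.51, -0.43 and 0.67, against -0.18 over all gene loci. With reference windows by GC content they were -0.20, -0.31 and 0.34, against -0.08. Hi-C measures no RNA, and the part of residual feeder fibroblasts in the values of the 8 loci was not tested.

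Insulation at the starts of the 8 genes differed by less than 0.5 between the matrices. The insulation score is the log2 of the contacts that cross a bin within a 480 kb square over the chromosome mean, so that a low score marks a boundary and a high score the inside of a domain. Sox1 scored 0.80 in WT and 1.05 in the labelled KO matrix, and Pax6 scored 0.77 and 0.73. In WT these scores were as high as or higher than those of 98.7% and 98.6% of gene starts.

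Six3 scored 0.06 and 0.03, and Lhx5 scored -0.40 in both matrices, a difference of -0.01. Neurog2 scored -0.17 in WT and -0.54 in the labelled KO matrix, and Olig2 scored 0.15 and -0.25. Nkx2-2 scored -0.66 and -0.22, and Meis2, whose start lies beside a strong boundary, scored -0.80 and -0.70.

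Of the 8 starts, 0 differed by 0.5 or more, while 34.8% of 20490 gene starts did. With squares of 240 and 960 kb, 4 and 2 of the 8 did, against 25.5% and 61.1% of gene starts. The median difference over all gene starts was -0.26, and relative to it 2 of the 8 differed by 0.5 or more, Nkx2-2 (0.70) and Sox1 (0.51), against 30.8% of gene starts. Without the median taken off, the direction of both depended on the setting. Nkx2-2 differed by -0.24 with a 240 kb square, and Sox1 by -0.25 with a 960 kb square and by -0.23 over its window. The median over all gene starts was -0.17 with the 240 kb square and -0.67 with the 960 kb square. Relative to these medians, Nkx2-2 was lower at 240 kb, while Sox1 was still higher at 960 kb. Among the 8, only the direction of the unadjusted difference at Olig2 was the same under all 7 alternatives. From a plain mean of the same square, which has a counting interval, the difference was 0.28 (0.22 to 0.34) for Sox1, 0.19 (0.05 to 0.33) for Nkx2-2 and -0.31 (-0.39 to -0.23) for Olig2. The intervals for Pax6, Lhx5 and Meis2 held 0, and those for Neurog2 (-0.28 to -0.004) and Six3 (-0.20 to -0.007) ended just below it.

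Across whole windows, the score was lower in the labelled KO matrix in 26 of 26 bins at Olig2 and 25 of 26 at Neurog2, and in 0 of 26 bins at Nkx2-2, 5 of 27 at Pax6 and 9 of 31 at Meis2. Sox1 (17 of 26), Six3 (17 of 27) and Lhx5 (24 of 26) had more, and over all autosomal bins 53.4% were lower. The window mean of Olig2 differed by -0.61 and that of Nkx2-2 by 0.36. The shape of the profile was closest at Pax6, with a Pearson correlation between matrices of 0.99 over 27 bins, and least close at Lhx5 (0.70 over 26 bins). Neighbouring bins share contacts, so those correlations only describe the shapes.

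**Figure D3:**
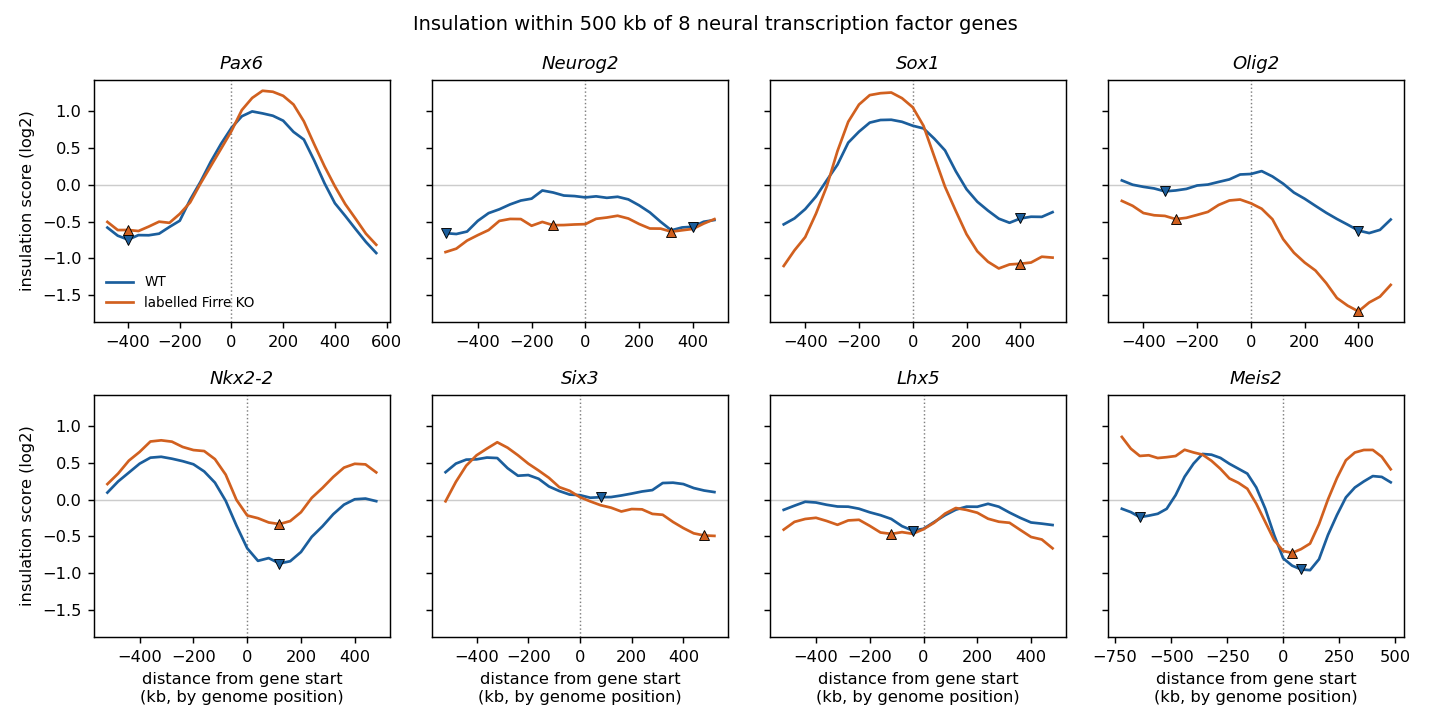
Insulation score (log2 over the chromosome mean) against distance from the gene start (kb, by genome position) in the 8 loci, with triangles at called boundaries. Sox1 starts near the top of its profiles. The Pax6 start lies below the tops of its profiles, which are 80 kb above it in WT and 120 kb in the labelled KO matrix. At Olig2 the boundary 400 kb above the start has scores of -0.62 in WT and -1.72 in the labelled KO matrix.

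Within 500 kb of the 8 genes, WT had 11 called boundaries and the labelled KO matrix had 10. Of the WT boundaries, 6 (54.5%) had a partner within 1 bin in the other matrix, against 46.4% of 2575 autosomal WT boundaries. The share called in the same bin was 36.4% near the 8 genes and 16.8% over the autosomes, and within 2 bins it was 81.8% and 62.0%. With a 240 kb square 12 of 15 were shared, against 58.9% of autosomal boundaries, and with a 960 kb square 0 of 6, against 27.9%. The strongest shared boundary of WT lay 80 kb above the Meis2 start in WT and 40 kb above it in the labelled KO matrix, just outside the gene, with strengths of 1.85 and 1.71. Nkx2-2 had a shared boundary 120 kb above its start (1.52 and 1.27), and Pax6 had one at -400 kb (1.19 and 1.13).

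The boundaries 400 kb above the starts of Sox1 and Olig2 were stronger in the labelled KO matrix. At Sox1 the strength was 1.01 in WT and 1.58 there, and at Olig2 it was 0.78 and 1.71. Olig2 also had a weaker shared boundary at -320 kb in WT and -280 kb in the labelled KO matrix (0.24 and 0.48).

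The 5 WT boundaries without a partner were 1 at Meis2 (-640 kb), 2 at Neurog2, 1 at Lhx5 and 1 at Six3 (80 kb above the start, strength 0.41). At Neurog2 and Lhx5 the nearest boundary of the other matrix was 80 kb away, at Six3 400 kb and at Meis2 680 kb. The domain that held the gene start measured 720 kb in WT and 1920 kb in the labelled KO matrix for Meis2, 1080 and 1360 kb for Six3, and 920 and 440 kb for Neurog2. The smaller Neurog2 domain was set by a boundary called only in the labelled KO matrix, at -120 kb, with a strength of 0.067. For the other 5 genes the 2 sizes differed by at most 80 kb.

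Contacts inside the loci, at 80 kb and beyond, were denser than the chromosome mean at the same distance for Sox1 and Pax6 in both matrices. Observed over expected contacts were 1.42 (1.4 to 1.44) in WT and 1.49 (1.46 to 1.52) in the labelled KO matrix for Sox1, and 1.29 (1.26 to 1.32) and 1.5 (1.46 to 1.55) for Pax6. Six3 had 1.11 and 1.33, a ratio of 1.20 (1.16 to 1.23), and Nkx2-2 had 0.912 and 1.11, a ratio of 1.21 (1.17 to 1.26). These 4 loci were higher in the labelled KO matrix, as were 27.9% of gene loci.

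The other 4 loci were lower. Olig2 had 1.08 and 0.819, a ratio of 0.761 (0.740 to 0.784), the lowest of the 8. Neurog2 had a ratio of 0.857 (0.821 to 0.895), Meis2 0.883 (0.849 to 0.918) and Lhx5 0.892 (0.861 to 0.924). The median ratio over all gene loci was 0.915. The ratio of Nkx2-2 turned to 0.902 when uncorrected read pairs were used.

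Contacts between the loci were examined in 3 pairs on chromosome 2 and 25 pairs on different chromosomes. Between the windows of Pax6 and Nkx2-2, whose starts lie 41510.9 kb apart, observed over expected contacts were 1.4 (1.19 to 1.64) from 155 read pairs in WT and 1.62 (1.28 to 2.04) from 75 in the labelled KO matrix. In those matrices 13.7% and 7.06% of equal blocks at the same distance on the chromosome were as high. Pax6 and Meis2, 10382.5 kb apart, had 1.17 (1.04 to 1.32) and 0.956 (0.778 to 1.16), values reached by 35.6% and 56.5% of such blocks.

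Nkx2-2 and Meis2, 31128.4 kb apart, had 1.24 (1.06 to 1.44) and 0.970 (0.726 to 1.27), reached by 29.5% and 53.2% of blocks. All 3 pairs lay above 1 in WT, and in the labelled KO matrix only Pax6 with Nkx2-2 had an interval above 1. The ratios between matrices were 1.16 (0.866 to 1.53), 0.816 (0.643 to 1.03) and 0.784 (0.564 to 1.07), in the order given, and each interval held 1. From uncorrected read pairs, the intervals for Pax6 with Meis2 (0.704, 0.555 to 0.888) and Nkx2-2 with Meis2 (0.683, 0.492 to 0.935) did not. Between the gene bodies 0 to 16 read pairs were found, and Pax6 with Meis2 had 16 and 11, with a ratio of 1.52 (0.637 to 3.48). Nkx2-2 with Meis2 had 2.31 (1.15 to 4.13) in WT, from 11 read pairs and reached by 6.49% of blocks, and 0 read pairs in the labelled KO matrix. Pax6 with Nkx2-2 had 4 and 3.

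Pooled over the 25 pairs on different chromosomes, observed over expected contacts were 1.02 (0.868 to 1.19) from 162 read pairs in WT and 1.18 (1.04 to 1.33) from 273 in the labelled KO matrix. The ratio was 1.16 (0.951 to 1.42). Single pairs had 1 to 17 read pairs in WT and 2 to 24 in the labelled KO matrix. At 1.5 or more lay 8 of the 25 pairs in WT and 7 in the labelled KO matrix. Of all blocks of that size on different autosomes, 20.9% and 17.9% did. With the expected value from bins of the same compartment classes, 5 of the 25 pairs did in WT and 7 in the labelled KO matrix.

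In 3 of the 25 pairs the interval of the ratio did not hold 1, against 6.73% of blocks with a read pair in each matrix. Pax6 with Olig2 had 0.320 from 3 read pairs in WT and 1.42 from 10 in the labelled KO matrix. Nkx2-2 with Lhx5 had 0.581 from 3 and 2.43 from 16. Neurog2 with Meis2 went the other way, with 2.0 from 6 and 0.376 from 3. From uncorrected read pairs all 3 intervals held 1, and that of Pax6 with Lhx5 did not (1.31 to 365). Of the 7 pairs with 10 read pairs in each matrix, 2 differed by 1.5 times or more, against 43.7% of blocks at that depth.

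Pairs among Sox1, Olig2, Six3 and Lhx5, the 4 loci with the highest preference in WT, were chosen after their values were seen. All 6 were above 1 in both matrices, from 1.18 to 1.94 in WT and from 1.20 to 2.30 in the labelled KO matrix. Of their intervals, only that of Olig2 with Six3 lay above 1 in WT (1.13 to 3.10). In the labelled KO matrix only those of Sox1 with Lhx5 (1.47 to 3.42) and Six3 with Lhx5 (1.09 to 2.83) did. Pooled, the 6 pairs gave 1.64 from 84 read pairs and 1.65 from 114. The other 19 pairs gave 0.833 and 1.04, a contrast that follows in part from the choice. When the expected value was taken from bins of the same compartment classes, the 6 pairs gave 1.34 and 1.43 and the other 19 gave 0.881 and 1.1, and the number of the 6 at 1.5 or more went from 5 in WT and 4 in the labelled KO matrix to 2 and 2.

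**Figure D4:**
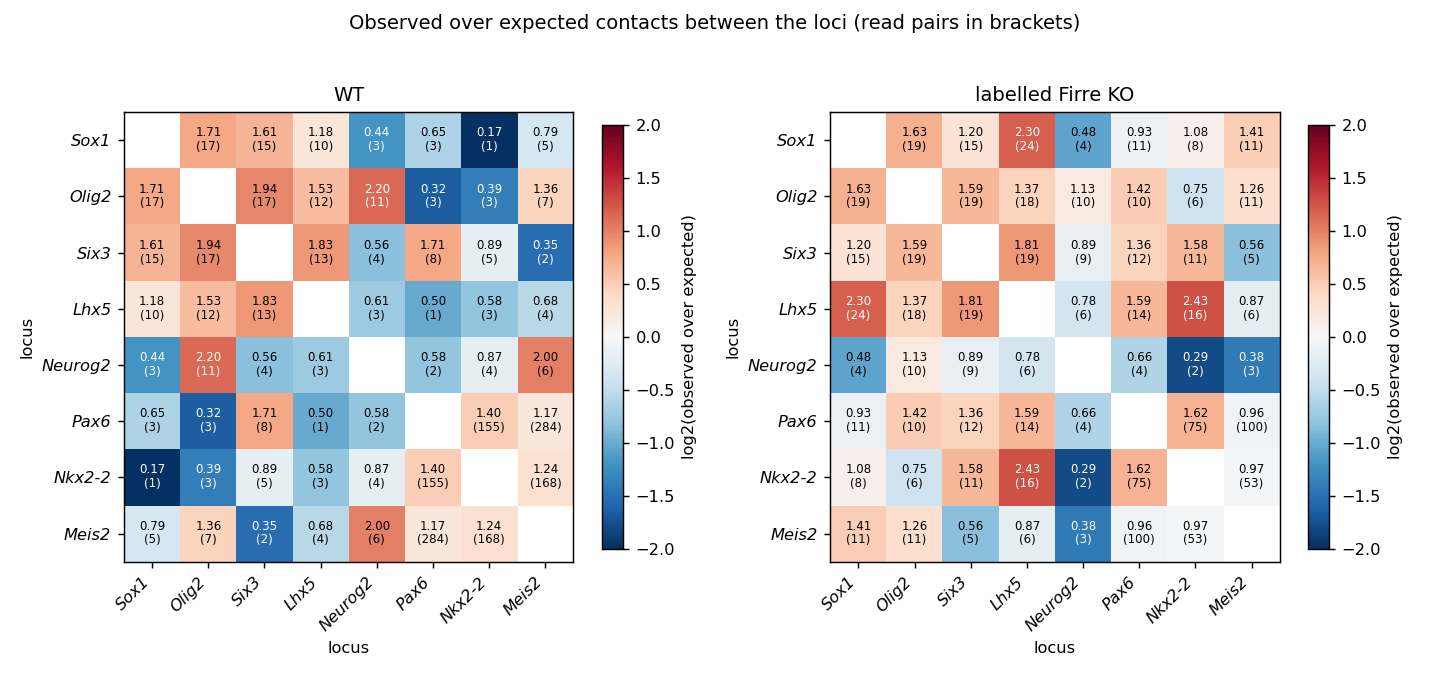
Observed over expected contacts between the 500 kb windows of the 8 loci in WT and in the labelled KO matrix, with the value in each cell. The 6 cells among Sox1, Olig2, Six3 and Lhx5 are all above 1 in both matrices, though most of their single intervals hold 1.

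The share of a locus' contacts that joined other chromosomes was higher in the labelled KO matrix at each of the 8 loci, as it was at all 21375 gene loci. It was 11.6% in WT and 31.9% in the labelled KO matrix for Pax6, 12.4% and 33.9% for Meis2, 14.7% and 31.3% for Nkx2-2, and 15.1% and 36.8% for Neurog2. The 4 loci with the highest preference in WT had larger shares. They were 19.3% and 40.1% for Sox1, 21.6% and 40.9% for Lhx5, 22.1% and 41.4% for Six3, and 24.4% and 47.9% for Olig2, against medians over gene loci of 19.6% and 41.7%.

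For each gene start, the 2 bins between 200 kb and 3 Mb away with the highest observed over expected value in WT were listed, among bins with at least 10 read pairs there. Most of the listed bins had a lower value in the labelled KO matrix, and some contacts were as strong in both matrices. From Six3, the bins chr17:85240001-85280000 and chr17:85200001-85240000, at -760 and -800 kb from the start and with no protein-coding gene start, had observed over expected values of 4.68 and 4.44 in WT and 5.0 and 4.34 in the labelled KO matrix. They rested on 23 and 81 read pairs in WT and on 18 and 54 in the labelled KO matrix. From Nkx2-2, the bin chr2:146440001-146480000 had 3.48 (109 read pairs) in WT and 4.14 (66 read pairs) in the labelled KO matrix. From Sox1, the bin chr8:11960001-12000000 had 3.95 (45 read pairs) and 4.27 (26 read pairs).

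These bins lie toward lower coordinates from their gene. The Meis2 start contacted the bin where BC052040 starts, 480 kb away inside the window, at 3.21 in WT and 2.27 in the labelled KO matrix (28 and 13 read pairs). The Lhx5 start contacted the bin at -200 kb at 2.03 and 1.48 (127 and 62 read pairs). Some sparser contacts were lower in the labelled KO matrix, such as that of Neurog2 with the bin of Rrh, Gar1 and Cfi 2200 kb away, at 4.81 and 2.7 from 13 and 4 read pairs. Olig2 contacted the bin of Ifnar1, an interferon receptor gene, at 1.35 and 0.404 from 27 and 5 read pairs. Because bins were ranked in WT, lower values in the other matrix are to be read as a description.

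Of the other neural genes, 61 pairs with one of the 8 lay on the same chromosome beyond 2 Mb. Between gene bodies, 20 pairs (32.8%) were at 1.5 or more in WT and 16 (26.2%) in the labelled KO matrix, against 21.1% and 23.5% of pairs of the 8 with any protein-coding gene. A single read pair weighs heavily at that scale, where no pair had more than 10 read pairs in WT or 9 in the labelled KO matrix, and 10 and 24 pairs had 0.

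Between whole windows, 6 of the 61 pairs (9.84%) were at 1.5 or more in WT and 7 (11.5%) in the labelled KO matrix, against 9.99% and 18.9% of window pairs of the 8 with any protein-coding gene. Of the 61, 56 pairs had 10 read pairs in each matrix, of which 7 were higher and 17 lower by 1.5 times or more in the labelled KO matrix. Of 10145 window pairs of the 8 with any protein-coding gene at that depth, 23.8% were higher and 20.2% lower by as much. Sox1 with Irx3, an Iroquois homeobox gene of neural patterning, had the highest value in WT, 1.99 from 218 read pairs, and 0.938 from 49 in the labelled KO matrix, a ratio of 0.471 (0.338 to 0.645). Sox1 with Irx5, a neighbour of Irx3, had 1.86 and 0.960, and Pax6 with Pax8 had 1.97 and 1.42.

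Lhx5 went the other way and was higher in the labelled KO matrix with Nkx6-1 (ratio 2.33) and Gsx1 (2.31). The loci on chromosome 2 were lower in several pairs, with ratios of 0.239 for Nkx2-2 with Lhx2, 0.307 for Pax6 with Lmx1b, 0.352 for Pax6 with Tbr1 and 0.385 for Meis2 with Ptf1a. Nkx2-2 was higher with Ptf1a (1.62, 0.848 to 3.06) and with Lhx6 (1.53, 0.937 to 2.49), pairs named after their values were seen, and both intervals held 1. Gene pairs that share a window or a neighbour, such as Irx3 and Irx5, are not separate observations.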

How the data were processed

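Hi-C libraries of WT and Firre KO mESCs, cut with HindIII, were mapped to mm9, binned at 40 kb and iteratively corrected by the authors with HiC-Pro 2.7.8. What was deposited is a corrected contact signal for each bin pair, from 1 pooled matrix per group. Whole read pairs and bin weights were recovered from them, with 100% of the entries within 0.05 of a whole number, and gave the depth and the intervals.

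Expected values were means of the chromosome at the same distance, or of the pair of chromosomes. Insulation came from an own implementation (480 kb square, 320 kb delta span, 160 kb smoothing, interquartile mean, boundary strength above 0), which can differ in detail from the study's script. Compartment reference windows of 200 kb lay in the outer tertiles of the first eigenvector in both matrices, with A the side richer in gene starts.

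Intervals at the 95% level were exact Poisson intervals of read pairs, exact binomial intervals of ratios, and intervals by error propagation for insulation and compartment preference. PCR duplicates cannot be told from independent molecules without molecular identifiers. Scripts were checked on simulated data and used Python 3.11.15, NumPy 2.4.6 and pandas 2.3.3.

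The 8 loci and the gene lists were chosen with earlier results of these data known. All 8 are named. Pairs with other neural genes were named by the 3 highest and 3 lowest WT values and by ratios past 1.5 times, with 10 read pairs in each matrix. Since no pair of gene bodies reached that depth, the rule was applied to whole windows, and some of the named pairs are given. Sox1 was placed by its RefSeq promoter, as the annotation used did not name it. Alternatives changed the square, the reference windows, the place read, the expected value, the correction and the bins kept.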

Additional observations from a re-analysis of the deposited data

How the results depend on the processing

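No paired analysis was possible because both libraries of a group are pooled in 1 matrix, and no replicate could be left out. Of 66 alternatives to the counts and contact ratios, 50 stayed within 1.5 times of the reported count or within its counting error, and 16 moved. Of 152 alternatives for single loci, 78 stayed within the counting error, 73 moved and 1 turned. The last was the ratio of contacts within the Nkx2-2 locus, from 1.21 as reported to 0.902 from uncorrected read pairs. Both tallies include a restriction to bins kept in both matrices. All bins of the 8 loci were kept in both, so that alternative could change little and always stayed. Insulation differences, all below 0.5 as reported and counted among those that stayed or moved, turned direction in 13 of 56 alternatives, at 7 of the 8 starts, and compartment preference in 0 of 48.

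The number of starts whose insulation differed by 0.5 or more was 0 as reported, 4 with a 240 kb square, 2 with a 960 kb square and 2 relative to the median of all gene starts. Shared WT boundaries numbered 6 of 11 as reported, 12 of 15 with a 240 kb square and 0 of 6 with a 960 kb square. A compartment preference above 0 in the labelled KO matrix was found at 1 locus as reported, at 3 from contacts with other chromosomes, at 0 from the start and 1 bin on each side, at 5 from uncorrected read pairs and at 3 with reference windows by GC content. The number of loci lower by 0.5 or more was 7 as reported and 4 with the GC windows. The number lower by any amount was 7 under each of these settings. With gene bodies and 1 bin on each side, the contact ratios were 3.53 for Pax6 with Nkx2-2, 1.52 for Pax6 with Meis2 and 0.328 for all pairs on other chromosomes. For Nkx2-2 with Meis2 the ratio was 0, because the labelled KO matrix held no read pair, which allows an observed over expected value of up to 2.5, taken at 3 read pairs, against 2.31 in WT. Pairs with other neural genes at 1.5 or more numbered 6 of 61 in WT and 7 in the labelled KO matrix over whole windows, against 20 and 16 between gene bodies. The causes were not tested. GC reference windows, the comparison with the median of all genes and uncorrected read pairs with a plain mean were chosen after seeing the data.

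Depth limits the contacts between loci, with 24 or fewer read pairs in any pair on different chromosomes.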

Other observations

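Among the other neural transcription factor genes, the loci with the largest differences in compartment preference were picked after their values were seen, so they are a description. En2, a midbrain and hindbrain homeobox gene, had a preference of 0.78 in WT and -1.14 in the labelled KO matrix, a difference of -1.91 (-2.09 to -1.74). Prox1 had 1.01 and -0.85, and Pax7 had 1.86 and 0.00. Dmrt3 had -0.18 and -2.04, and Pou3f1, a POU-domain factor of neural progenitors, had 1.46 and -0.27. With reference windows by GC content their differences were -0.85, -1.17, -1.17, -1.01 and -0.93, in the order given. By the measure used above, 4 of the 5 loci ended below 0 with an interval that left 0 out. That number follows in part from the choice by size of the fall, and Dmrt3 was below 0 in WT too. Of all gene loci, 59.4% were above 0 in the labelled KO matrix.

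In the other direction, Neurod1, a basic helix-loop-helix factor of neurons, had -0.90 in WT and 0.68 in the labelled KO matrix, a difference of 1.58 (1.42 to 1.74). Prdm12 had 2.42 and 3.38, and Vax2 had 1.38 and 2.29. With reference windows by GC content the difference of Neurod1 was 1.01 (0.89 to 1.14), while that of Prdm12 was 0.14 (-0.06 to 0.34). Meis1 is named as a paralogue of Meis2 and not for the size of its difference. It went from -1.01 to -0.57, a difference of 0.44 (0.26 to 0.61). Rises of that size were common, since 23.6% of all gene loci were higher by 0.5 or more.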
